A study of Mus musculus with 6 samples.

Results

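The tubulin genes described here are 10 genes of bone marrow-derived macrophages (BMDMs): the alpha-tubulin genes Tuba1a, Tuba1b, Tuba1c and Tuba4a, the beta-tubulin genes Tubb2a, Tubb2b, Tubb4b, Tubb5 and Tubb6, and the gamma-tubulin gene Tubg1. They were found by symbol among the 35423 rows that could be restored from the deposited expression table, and each symbol had 1 row. The list was chosen by family name together with the FPKM values of these libraries, FPKM being fragments scaled by gene length and library total, and all 10 genes had a mean FPKM between 1.925 and 118.1. Because both groups were in view when the list was drawn up, the differences below are a description and lend no independent support to a change of the family. RNA was sequenced from 6 libraries, 3 of untreated BMDMs (Ctrl) and 3 of BMDMs given zoledronic acid (ZA), a nitrogen-containing bisphosphonate that blocks farnesyl diphosphate synthase, for 12 h. The cells came from femurs of C57BL/6 mice and had been differentiated for 7 days with macrophage colony-stimulating factor. The sources used here give neither the ZA concentration of these libraries nor whether replicates were separate cultures or mice, so p-values measure the spread between these libraries, which may be technical.

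Microtubules are hollow polymers of alpha- and beta-tubulin dimers, which carry vesicles and organelles and form the spindle of dividing cells. Gamma-tubulin is not part of the polymer wall but sits in ring complexes that start new microtubules. The many alpha and beta genes encode closely similar isotypes, and cells adjust tubulin mRNA to the pool of free dimers: the factor TTC5 recognises the first residues of a tubulin chain as it leaves the ribosome, and the CCR4-NOT complex then degrades the mRNA. In macrophages microtubules support phagosome transport, secretion and migration.

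The coding starts of the genes are shown because they carry these first residues. Each line gives the first bases of the coding sequence 5′ to 3′ from the GENCODE M21 transcripts (GRCm38), with the first 4 codons in capitals, and Tubb6 is not shown.
Tuba1a: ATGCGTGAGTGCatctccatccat
Tuba1b: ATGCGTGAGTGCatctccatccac
Tuba1c: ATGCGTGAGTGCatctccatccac
Tuba4a: ATGCGCGAGTGCatttcagtccat
Tubb2a: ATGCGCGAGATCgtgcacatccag
Tubb2b: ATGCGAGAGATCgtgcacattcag
Tubb4b: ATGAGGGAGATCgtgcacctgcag
Tubb5: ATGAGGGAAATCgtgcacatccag
Tubg1: ATGCCGAGAGAAatcatcacccta
All 4 alpha genes began with codons for Met-Arg-Glu-Cys and the 5 beta genes with codons for Met-Arg-Glu-Ile, while Tubg1 began with Met-Pro-Arg-Glu. The codons differed between genes with the same residues: Tuba1a, Tuba1b and Tuba1c shared their capital letters, whereas Tubb2a, Tubb2b, Tubb4b and Tubb5 each had their own. In each alpha gene the first coding exon held only the 3 bases of the start codon, and in each beta gene it held 57 bases. The start codons lay on chromosome 15 for Tuba1a (chr15:98953451-98953453, minus strand), Tuba1b (chr15:98934333-98934335, minus strand) and Tuba1c (chr15:99030422-99030424, plus strand). Tubb2a (chr13:34077927-34077929) and Tubb2b (chr13:34130231-34130233) both lay on the minus strand of chromosome 13.

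The similarity of the coding sequences limits what reads can tell apart. Tuba1a and Tuba1b had 98.3% identical coding bases, Tuba1b and Tuba1c 97.9%, Tuba1a and Tuba1c 97.1%, and Tubb2a and Tubb2b 96.5%. Tuba4a differed more from the other alpha genes, at 84.8% to 85.2%, and the remaining pairs of the 5 beta genes lay between 80.2% and 84.6%. Reads of 150 bases were sequenced from both ends of the fragments. Of all 150-base stretches of its transcript, Tuba1b shared 57.9% with a transcript of another gene, Tuba1a 54.7%, Tuba1c 46.7%, Tubb2a 27.9%, Tubb2b 20.1%, Tubb4b 16.8% and Tubg1 0.9%, and Tuba4a, Tubb5 and Tubb6 shared 0%. The share of Tubb4b was with the pseudogene Tubb4b-ps1. How such reads were counted is not given in the sources used here, so the values of Tuba1a, Tuba1b, Tuba1c, Tubb2a, Tubb2b and Tubb4b are uncertain where reads could be split between copies.

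Library totals, inferred from the FPKM values, lay between 41230600 and 42155808 fragments. The 6 libraries held all 8 macrophage markers listed, among them Csf1r and Adgre1, at mean FPKM values of at least 23.95. The sums of the 4 T cell markers stayed at or below 0.337 FPKM and those of the 4 dendritic cell markers at or below 0.370 FPKM. Counts per library for the tubulins ran from 110 to 207 fragments for Tubb2b, the least covered gene, and from 12305 to 13544 fragments for Tubb5, the most covered. A floor of 3 fragments would give Tubb2b an FPKM of 0.0370, far under its values.

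Levels per length spanned from Tubb2b to Tubb5. In Ctrl libraries Tubb5 was the highest at 122 ± 1.73 FPKM (mean ± SD, n = 3), followed by Tuba1b at 104 ± 1.35 FPKM, Tubb2a at 55.8 ± 0.909 FPKM, Tuba1c at 41.8 ± 1.31 FPKM and Tubb4b at 39.4 ± 0.684 FPKM. Tubb6 followed at 23.5 ± 1.93 FPKM and Tuba1a at 21.3 ± 0.898 FPKM, then Tuba4a at 14.6 ± 0.914 FPKM, Tubg1 at 7.85 ± 0.690 FPKM and Tubb2b at 1.87 ± 0.333 FPKM. Only the neighbours Tubb6 and Tuba1a overlapped among the Ctrl libraries. In ZA libraries the same pair overlapped with Tuba1a first, and Tuba1c and Tubb4b overlapped as well.

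**Figure D1:**
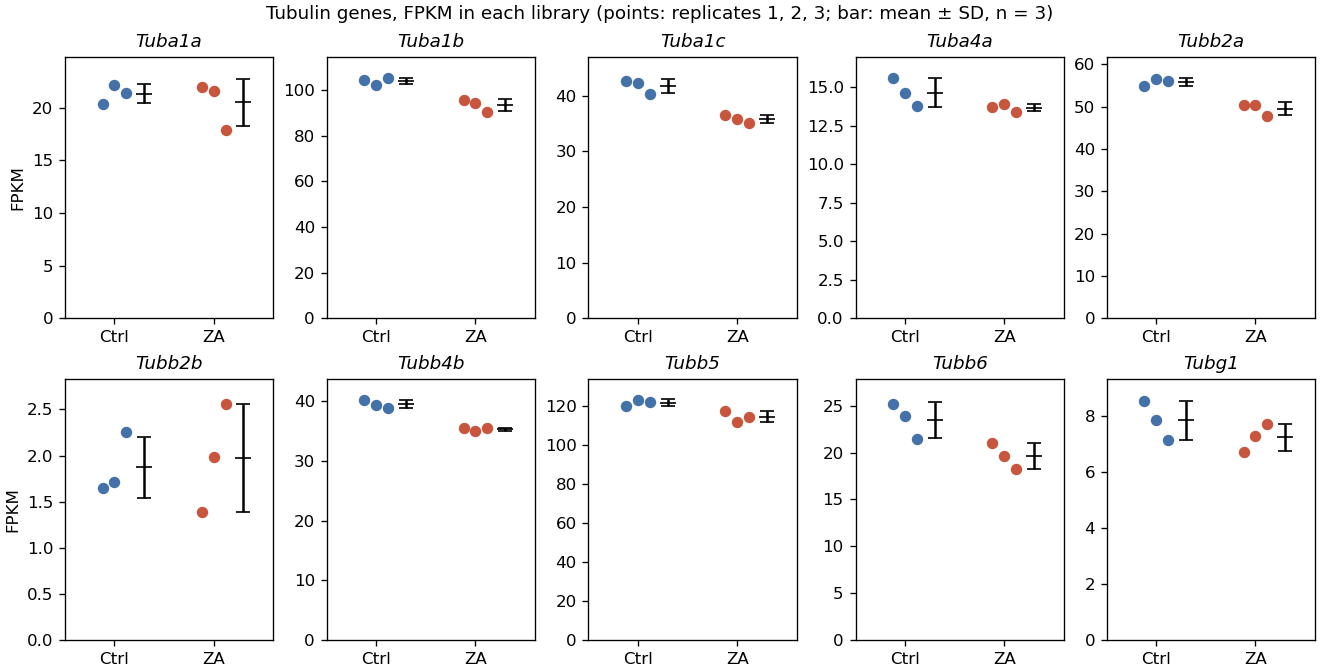
FPKM (vertical axis, from 0, separate scale for each gene) of the 10 tubulin genes in 3 Ctrl and 3 ZA libraries, with each point a library in the order of its replicate number and the bar the mean ± SD. In 6 genes every ZA point lies below every Ctrl point, and in Tuba1a, Tuba4a, Tubb2b and Tubg1 the groups overlap.

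Tuba1c was called lower in ZA libraries, a call that was lost when any single library was left out. Another 5 tubulin genes lay lower in every ZA library without passing the adjusted threshold. The groups overlapped for Tuba1a, Tuba4a, Tubb2b and Tubg1. Of the 10 genes 9 had a log2 fold change below 0, against 43.1% of the 9798 genes tested, and in 6 of the 10 every ZA library lay below every Ctrl library, against 6.76% of tested genes. No tubulin gene had its ZA libraries all above its Ctrl libraries, against 11.4%. The median log2 fold change, on the log2(FPKM + 1) scale, was -0.127 over the 10 genes and 0.01 over all tested genes. With limma's test and Benjamini-Hochberg adjustment over all tested genes 1 of the 10, Tuba1c, passed an adjusted p of 0.05 as lower, against 0.163% of all genes lower and 0.204% higher. At an unadjusted p under 0.05 the 6 genes whose groups did not overlap were lower and 0 were higher, against 4.85% and 7.5% of all genes. These shares come from the contrast that was in view when the list was made, and nothing is read from them. Whether ZA libraries held fewer cells rich in tubulin mRNA or less of it per cell cannot be told apart in bulk RNA.

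Among the alpha genes, Tuba1c, a widely expressed isotype gene, showed the clearest difference. Tuba1c stood at 42.7, 42.3 and 40.3 FPKM in Ctrl replicates 1, 2 and 3 and at 36.6, 35.7 and 35.1 FPKM in ZA replicates 1, 2 and 3. The 2 groups did not overlap, and the mean fell by 14.3% (log2 fold change -0.22 ± 0.03 SE, adjusted p = 0.0487 with limma). That call lay at the edge of the threshold and was lost when any single library was left out, with adjusted p between 0.0518 and 0.2001. In those fits the log2 fold change lay between -0.24 and -0.20.

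Tuba1b, a widely expressed gene and the most abundant alpha gene here, stood at 104, 102 and 105 FPKM in Ctrl and at 95.6, 94.5 and 90.3 FPKM in ZA. All ZA libraries were below all Ctrl libraries, by -10.1% of the Ctrl mean (log2 fold change -0.15 ± 0.03 SE), and the adjusted p of 0.0771 missed the threshold. Tuba1a, known above all from developing neurons, stood at 20.4, 22.2 and 21.4 FPKM in Ctrl and at 22.0, 21.6 and 17.9 FPKM in ZA. Its groups overlapped, since ZA replicates 1 and 2 lay among the Ctrl values and only ZA replicate 3 lay below them (log2 fold change -0.06 ± 0.07 SE, adjusted p = 0.776). Tuba4a, whose protein lacks an encoded C-terminal tyrosine, stood at 15.6, 14.6 and 13.8 FPKM in Ctrl and at 13.7, 13.9 and 13.4 FPKM in ZA. ZA replicate 2 of Tuba4a lay above Ctrl replicate 3, so the groups overlapped (log2 fold change -0.09 ± 0.04 SE, adjusted p = 0.453).

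Among the beta genes, Tubb4b, a widely expressed isotype gene also found in cilia, came closest to the threshold. Tubb4b stood at 40.1, 39.3 and 38.8 FPKM in Ctrl and at 35.4, 34.9 and 35.4 FPKM in ZA, and the spread within either group was far smaller than the gap between them. Its difference was -10.6% of the Ctrl mean (log2 fold change -0.16 ± 0.02 SE, adjusted p = 0.0533 with limma). Tubb2a stood at 54.8, 56.6 and 56.0 FPKM in Ctrl and at 50.4, 50.5 and 47.6 FPKM in ZA, without overlap (-11.2% of the Ctrl mean, log2 fold change -0.17 ± 0.03 SE, adjusted p = 0.0761). Its near-identical neighbour Tubb2b stood at 1.65, 1.71 and 2.25 FPKM in Ctrl and at 1.39, 1.99 and 2.55 FPKM in ZA. The Tubb2b groups overlapped throughout, with the lowest and the highest library both in ZA (log2 fold change 0.04 ± 0.14 SE, adjusted p = 0.936).

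Tubb5, the dominant beta gene and a common isotype of proliferating cells, stood at 119.8, 123 and 122 FPKM in Ctrl and at 118, 112 and 114 FPKM in ZA. All ZA values were lower, by -5.77% of the Ctrl mean, and the adjusted p was 0.244. Tubb6, an isotype whose excess is known to destabilise microtubules, stood at 25.2, 23.9 and 21.4 FPKM in Ctrl and at 20.99, 19.6 and 18.3 FPKM in ZA. Its difference was the widest of the 10 genes relative to the Ctrl mean, at -16.4%, but its libraries also spread more and the highest ZA library lay just under the lowest Ctrl library (log2 fold change -0.25 ± 0.07 SE, adjusted p = 0.194). Tubg1, the main gamma-tubulin gene, stood at 8.54, 7.87 and 7.16 FPKM in Ctrl and at 6.73, 7.29 and 7.71 FPKM in ZA, with overlapping groups (log2 fold change -0.10 ± 0.07 SE, adjusted p = 0.563).

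**Figure D2:**
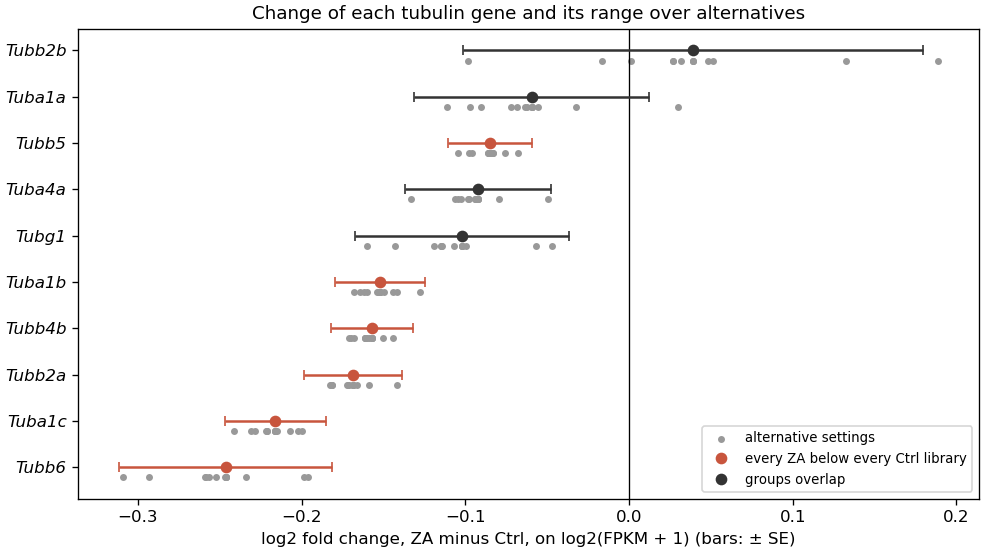
Log2 fold change, ZA minus Ctrl, on the log2(FPKM + 1) scale (horizontal axis) for each tubulin gene, with bars of ± SE, red where the groups did not overlap, and grey points for the same value under other settings or without 1 library. The grey points stay below 0 for 8 genes and cross 0 for Tuba1a and Tubb2b.

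Summed over genes, the 10 tubulins reached 433, 434 and 428 FPKM in Ctrl and 400.5, 392 and 383 FPKM in ZA. The ZA libraries were all lower, by -9.28% of the Ctrl mean. The sum in fragments does not depend on how reads were split among these 10 genes. It can still depend on reads shared with other genes, such as Tubb4b-ps1. The 10 genes held 36568, 36572 and 36152 fragments in Ctrl and 33613, 33088 and 32972 fragments in ZA. That equalled 0.0874% of all fragments of a Ctrl library and 0.0798% of a ZA library on average. The alpha sum stood at 183, 181 and 181 FPKM in Ctrl and at 168, 166 and 157 FPKM in ZA, and the beta sum at 242, 245 and 240.3 FPKM in Ctrl and at 226, 219 and 218 FPKM in ZA. Both subunits were thus lower by a like amount, -10.0% for alpha and -8.76% for beta, and the ratio of the alpha to the beta sum overlapped between groups, with a mean of 0.7502 in Ctrl (SD 0.0077, n = 3) and of 0.7395 in ZA (SD 0.0196, n = 3).

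The make-up of each subunit pool moved little. Tuba1b supplied 57.2% ± 0.901 of alpha FPKM in Ctrl and 57.2% ± 0.361 in ZA. Tuba1c supplied between 22.3% and 23.3% in Ctrl and between 21.6% and 22.4% in ZA, and these ranges overlapped. Tubb5, whose level differed least among the 6 genes without overlap, supplied 49.6%, 50.4% and 50.7% of beta FPKM in Ctrl and 52.1%, 51.1% and 52.4% in ZA. The Tubb5 share was thus higher in every ZA library, while that of Tubb4b overlapped between groups at 16.3% ± 0.301 and 15.9% ± 0.269.

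**Figure D3:**
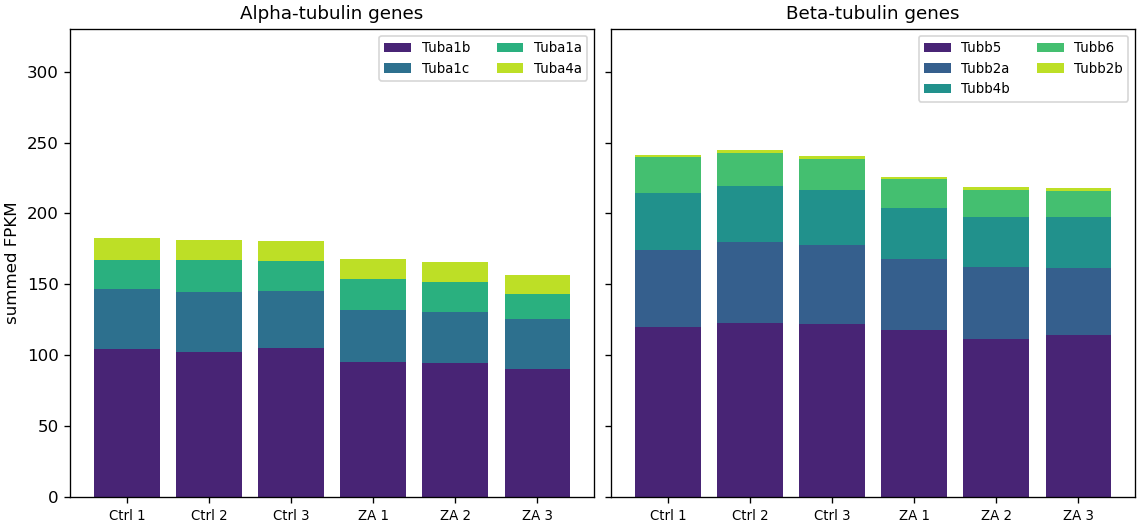
Summed FPKM (vertical axis, from 0) of the alpha-tubulin genes and of the beta-tubulin genes in each of the 6 libraries, with each gene a layer of the bar. Both sums are lower in all 3 ZA libraries, and Tuba1b and Tubb5 form the thickest layers in each library.

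Promoters were looked at because several tubulin genes differed in the same direction. RefSeq windows of the 250 bases before the transcription start (GRCm38.p6) were at hand for 7 genes, Tuba1a, Tuba1b, Tuba1c, Tuba4a, Tubb2a, Tubb4b and Tubb5. The 2 genes with the lowest p-values are shown, with matches to CCAAT on either strand in capitals. Tuba1c lies at chr15:99029641-99029890 on the plus strand and Tubb4b at chr2:25224703-25224952 on the minus strand, each written 5′ to 3′ along the gene.
Tuba1c: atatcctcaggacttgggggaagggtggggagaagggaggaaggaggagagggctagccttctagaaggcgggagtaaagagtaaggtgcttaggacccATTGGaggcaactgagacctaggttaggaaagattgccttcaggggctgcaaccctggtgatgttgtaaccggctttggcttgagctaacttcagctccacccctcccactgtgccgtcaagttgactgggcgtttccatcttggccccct
Tubb4b: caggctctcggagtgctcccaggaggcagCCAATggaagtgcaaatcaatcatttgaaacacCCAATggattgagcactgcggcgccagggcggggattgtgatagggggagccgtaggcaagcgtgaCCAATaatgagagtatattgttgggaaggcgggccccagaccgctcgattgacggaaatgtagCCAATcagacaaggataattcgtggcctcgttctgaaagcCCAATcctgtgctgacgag
The Tubb4b window held 5 matches to CCAAT and the Tuba1c window held 1, on the opposite strand and 151 bases before the start. Tubb5 held 2 and Tuba1a 1, so 4 of the 7 genes had a match, against 33.8% of 32851 windows of the same length. GGGCGG, the GC box, matched on either strand in 5 of the 7, against 32.7% of windows, and TATAAA in 1, Tubb2a, against 12.4%. Of the genes whose groups did not overlap, Tuba1c, Tubb4b and Tubb5 held CCAAT, and Tuba1b and Tubb2a held none in these bases. Of those whose groups overlapped, Tuba1a held CCAAT and Tuba4a held none. Any part of these motifs in the differences was not tested.

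Of the 10 further tubulin genes looked up, Tubb1, the beta isotype of platelets and megakaryocytes, was the only one with a mean FPKM of at least 1. Tubb1 stood at 3.16, 2.63 and 2.52 FPKM in Ctrl and at 2.67, 2.45 and 1.99 FPKM in ZA, with overlap (log2 fold change -0.16 ± 0.09 SE, adjusted p = 0.4996). The neuronal gene Tubb3 averaged 0.621 FPKM in Ctrl and 0.734 FPKM in ZA, with the highest library, ZA replicate 1, at 1.12 FPKM. Tubd1 and Tube1, the centriolar delta- and epsilon-tubulin genes, averaged 0.816 and 0.154 FPKM in Ctrl and 0.787 and 0.157 FPKM in ZA. Tubb4a and Tuba8 stayed below 0.2 FPKM in every library, Tubg2 had at most 5 fragments, and Tuba3a, Tuba3b and Tubal3 were listed at 0.

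Genes that fold tubulin had median log2 fold changes near that of all tested genes. Of the 8 genes of the CCT chaperonin, which folds alpha- and beta-tubulin, 0 passed an adjusted p of 0.05 and the median log2 fold change was -0.01. Cct5 averaged 68.7 FPKM in Ctrl and 72.4 FPKM in ZA (adjusted p = 0.333) and Cct4 80.4 and 83.9 FPKM (adjusted p = 0.404 with limma), with every ZA library above every Ctrl library in both, against 11.4% of all tested genes. In Cct2, at 69.8 and 67.9 FPKM, and Cct8, at 53.6 and 52.0 FPKM, both named after their values were seen, every ZA library lay below every Ctrl library, against 6.76%. Of the 6 prefoldin genes and the 7 folding cofactor genes, which pass on and assemble the dimer, 0 passed. Pfdn1 averaged 17.6 FPKM in Ctrl and 18.2 FPKM in ZA, Vbp1 16.4 and 16.7 FPKM, Arl2 34.8 and 33.6 FPKM, and Tbcc 7.27 and 7.53 FPKM. Of the 4 genes of tubulin mRNA autoregulation 0 passed, with Ttc5 at 8.52 FPKM in Ctrl and 8.63 FPKM in ZA and Cnot11 at 7.35 and 7.74 FPKM. In 1 of the 4, Cnot11, every ZA library lay above every Ctrl library, against 11.4%.

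Of the 9 tested genes of the gamma-tubulin ring complex 0 passed an adjusted p of 0.05, with a median log2 fold change of 0.01. Mzt2 averaged 5.43 FPKM in Ctrl and 6.12 FPKM in ZA, and Tubgcp5 averaged 5.05 and 5.24 FPKM. Of the 12 tested genes that bind plus ends or stabilise microtubules 0 passed, with Map1s at 19.99 and 20.6 FPKM and Mapre1 at 13.3 and 12.9 FPKM. In 2 of the 12, Map1s among them, every ZA library lay above every Ctrl library, against 11.4% of all tested genes. Of the 7 tested genes that depolymerise or sever microtubules 0 passed. Stmn1, which binds free tubulin dimers, averaged 30.2 FPKM in Ctrl and 26.8 FPKM in ZA (log2 fold change -0.17 ± 0.05 SE, adjusted p = 0.209 with limma). Fignl1, a fidgetin relative also known from DNA repair, averaged 1.73 and 1.29 FPKM (adjusted p = 0.222 with limma). In these 2 of the 7 every ZA library lay below every Ctrl library, against 6.76% of all tested genes.

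Of the 10 tested enzymes that modify tubulin 0 passed, and 1 had a log2 fold change below 0, against 43.1% of all tested genes. Sirt2, a tubulin deacetylase, averaged 73.4 FPKM in Ctrl and 78.9 FPKM in ZA (adjusted p = 0.212 with limma). Svbp, the partner of the enzymes that remove the C-terminal tyrosine, averaged 12.03 and 13.5 FPKM (adjusted p = 0.255 with limma). Atat1, named after its values were seen, averaged 2.12 and 2.73 FPKM (adjusted p = 0.258 with limma). In these 3 of the 10 every ZA library lay above every Ctrl library, against 11.4% of all tested genes. Of the 18 tested kinesin and dynein genes 0 passed, with Kif5c at 1.77 FPKM in Ctrl and 1.55 FPKM in ZA and Klc2 at 6.11 and 6.47 FPKM. In 5 of the 18, Klc2 among them, every ZA library lay above every Ctrl library, against 11.4% of all tested genes. In 1 of the 18, Kif5c, every ZA library lay below every Ctrl library, against 6.76%. At an unadjusted p under 0.05 the 81 tested genes of the 9 lists from chaperonin to motors held 5 higher genes, 2 of the chaperonin and 3 modifying enzymes, and 2 lower genes, Stmn1 and Fignl1. These were 6.17% and 2.47% of the 81, at or below the 7.5% and 4.85% of all tested genes.

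A list of DNA replication and division genes also lay lower in ZA libraries. Of 16 tested proliferation genes all 16 had a log2 fold change below 0, with a median of -0.14, against 43.1% of all tested genes below 0. In 10 of the 16 every ZA library lay below every Ctrl library, against 6.76% of all tested genes. At an unadjusted p under 0.05 with limma 11 were lower, against 4.85%. An adjusted p under 0.05 was reached by 3 as lower, against 0.163% of all genes, namely Pcna at 178 FPKM in Ctrl and 159 FPKM in ZA (adjusted p = 0.0453), Mcm5 at 6.01 and 4.67 FPKM (adjusted p = 0.0487) and Rrm2 at 4.10 and 3.12 FPKM (adjusted p = 0.0487). The summed FPKM of the list was 265.6 to 269.8 across Ctrl libraries and 234.7 to 241.7 across ZA libraries. Of 10 neutrophil and progenitor markers 6 were tested and 1 was listed at 0 throughout. The 6 tested markers were also all below 0 in log2 fold change, with a list median of -0.27, and 0 passed an adjusted p of 0.05. In 4 of the 6 every ZA library lay below every Ctrl library, against 6.76% of all tested genes. Among these were Prtn3 at 2.25 and 1.53 FPKM (adjusted p = 0.0742 with limma) and Mpo at 2.51 and 1.70 FPKM (adjusted p = 0.110 with limma). The summed neutrophil and progenitor markers, in which the most abundant markers weigh most, overlapped between groups. They stood at 35.42 to 50.87 FPKM across Ctrl libraries and 31.51 to 37.05 FPKM across ZA libraries. Of 5 stromal markers 4 were tested, and all 4 were below 0 with a median log2 fold change of -0.20. Cxcl12 averaged 1.38 FPKM in Ctrl and 0.843 FPKM in ZA without overlap (adjusted p = 0.341 with limma), Col3a1 averaged 1.33 and 1.07 FPKM with overlap, and the stromal sum overlapped at 10.44 to 19.85 FPKM across Ctrl libraries and 9.09 to 14.8 FPKM across ZA libraries. The B cell marker Cd79b averaged 2.10 and 1.81 FPKM and the erythroid marker Hba-a1 1.76 and 1.13 FPKM, both with overlap, and the sums of these 2 lists stayed at or below 3.01 FPKM. The part of dividing, progenitor or stromal cells in the tubulin difference was not tested.

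Of the 8 macrophage markers 0 passed an adjusted p of 0.05. Only 1, Mertk, had a log2 fold change below 0, against 43.1% of all tested genes. In 4 of the 8 every ZA library lay above every Ctrl library, against 11.4% of all tested genes. Among these were Csf1r at 772 and 835 FPKM (adjusted p = 0.0700 with limma) and Adgre1 at 532 and 581 FPKM (adjusted p = 0.0785 with limma). In Mertk, Fcgr1, Itgam and Lyz2 the groups overlapped. The macrophage sum overlapped at 23610 to 27520 FPKM across Ctrl libraries and 24500 to 28010 FPKM across ZA libraries.

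**Figure D4:**
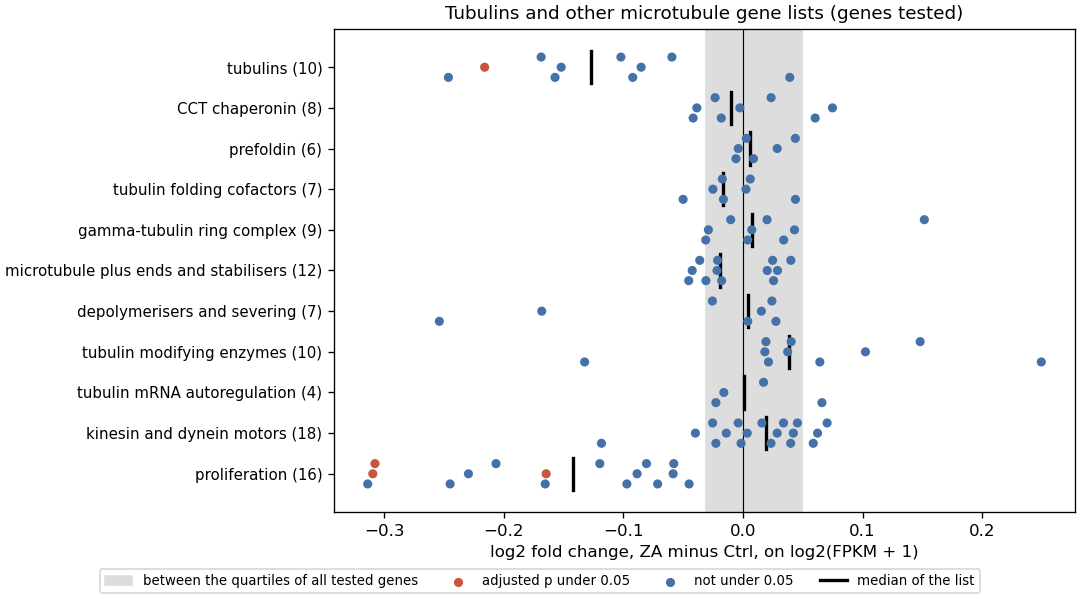
Log2 fold change, ZA minus Ctrl, on the log2(FPKM + 1) scale (horizontal axis) for each tested gene of the lists on the vertical axis, with the number tested in brackets, a black line at each median and a grey band between the quartiles of all tested genes. The tubulins and the proliferation genes lie mostly left of the band, while the medians of the other lists plotted lie inside it, and cell type markers are not plotted.

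The genes outside the 10 with the profile most like that of the tubulins, measured as Pearson r of log2(FPKM + 1) with the mean of the 10 standardised tubulin profiles, were Peak1 (r = 0.993), Zfand5 (r = 0.991), Pon2 (r = 0.991), Gng11 (r = 0.991) and Prkar2a (r = 0.985). These values describe 6 libraries in 2 groups, all shared with the tubulins. The genes were picked for their high r among all tested genes outside the 10, and shared regulation was not tested.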

How the data were processed

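RNA-seq libraries of 3 Ctrl and 3 ZA samples were grouped by their labels. The labels of all 6 libraries name both a VAHTS and a SMARTER library kit, so the kit cannot be told from them. The paper's methods name only a VAHTS kit. The authors deposited 1 table of FPKM values. The aligner, counter and annotation are not given in the sources used here, and mm9 is the build in the submitters' processing notes. No coordinates of that build are printed, and sequences come from RefSeq (GRCm38.p6) and GENCODE M21.

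Of 35434 rows, all but 11 had lost the separators between symbol and values. These were split by number form, or else by the rule that values are whole fragments for a gene length between 20 and 250000 bases, less likely by chance than the next cut by 3 powers of 10. The 11 intact rows came back identical, and 11 other rows were left out. Library totals were inferred as numbers at which the FPKM values give whole fragments, and all fragment counts rest on them. No other column of per-sample values was found.

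Genes averaging an FPKM of 1 or more were compared as log2(FPKM + 1) in limma 3.58.1 (R 4.3.3; lmFit, eBayes with trend), two-sided, with Benjamini-Hochberg adjustment over 9798 genes. The tubulin genes and the lists were chosen with earlier results of these data known. Genes named beside the tubulins were every further tubulin, and of each list, cell type markers included, up to 2 tested genes with the largest absolute moderated statistic and any with an adjusted p under 0.05. Genes marked as named after their values were seen fall outside this rule. Alternatives were a pseudocount of 0.1, other filters and scalings, no variance trend, a replicate block, voom on recovered fragments and leaving out each library. Both the splitting and the fit were tested on simulated data. Drawing used Matplotlib 3.10.9 in Python 3.11.15.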

Additional observations from a re-analysis of the deposited data

How the results depend on the processing

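The fold changes of Tuba1b, Tuba1c, Tuba4a, Tubb2a, Tubb4b, Tubb5, Tubb6 and Tubg1 stayed below 0 under all alternatives run. When 1 library was left out, Tuba1a ranged from -0.11 to 0.030, above 0 without ZA replicate 3, and Tubb2b from -0.098 to 0.19, below 0 without Ctrl replicate 1 (-0.016) or ZA replicate 3. Tuba4a ranged from -0.13 to -0.049 and Tubg1 from -0.16 to -0.047. Tubb2b has no value at a mean FPKM of at least 5. The summed tubulin FPKM stayed lower, between -0.16 and -0.12 on the log2 scale. Counts of tubulins called depend on the setting: 1 became 0 with no filter, quantile normalization or no variance trend, 2 at a mean FPKM of at least 5 or after centring, 4 with voom, and ranged from 0 to 0 when 1 library was left out. Tuba1c was lost with no filter (adjusted p = 0.231), quantile normalization (0.0577) and no variance trend (0.114). Of all genes, 36 were called, and 1 with no filter, 20 with quantile normalization, 1 without the trend, 132 with voom and 0 to 25 when 1 library was left out. Centring on the median turned the split at an unadjusted p under 0.05 from 735 higher and 475 lower into 507 higher and 667 lower, and quantile normalization into 573 and 589.

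The replicate numbers were not shown to pair the samples, since deviations of same-numbered libraries correlated at 0.284, 0.0395 and 0.280, although each was the highest for its number. With the replicate block 78 genes and 2 tubulins, Tuba1c and Tubb6, were called (both with adjusted p = 0.0267). Tubb2b was the least covered tubulin, at 110 to 207 fragments per library, and the causes of these shifts were not tested.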
